A study of Homo sapiens with 4 samples.

Results

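The genes described here encode the subunits, assembly chaperones and activators of the human proteasome. They are the rows of the deposited expression table whose symbol starts with PSMA, PSMB, PSMC, PSMD, PSME, PSMF or PSMG followed by a number, without PSMB8 and PSMB9. The rule took 48 of 57820 rows, which carry 46 distinct symbols, because PSMA1 and PSMA2 each label a second locus. No measured value entered the rule. Expression was measured in A549 cells, a cell line from a human lung adenocarcinoma, which the series title describes as NRF2-activated. All 4 libraries came from siRNA-transfected cells: 2 from a control siRNA (control 1 and control 2), 1 from CEBPB siRNA-1 and 1 from CEBPB siRNA-2, both of which target the transcription factor C/EBP beta. Fresh medium was given 24 h after transfection and RNA was taken after another 24 h. Each siRNA against CEBPB is represented by 1 library, so the knockdown group is a pair of different reagents. Nothing in the labels ties the control libraries to separate cultures, so p-values measure the spread between samples only, which may be technical.

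The proteasome degrades proteins tagged with ubiquitin. Its barrel, the 20S core, is built of outer alpha rings and inner beta rings, and the beta subunits PSMB5, PSMB6 and PSMB7 hold the proteolytic sites. The 19S cap binds ubiquitin chains, removes them and uses ATPases to unfold and feed in the substrate. Other particles can sit on the core in place of the cap: PA28, made of PSME1 and PSME2 or of PSME3 alone, and PA200, the product of PSME4. In cells exposed to interferon, PSMB8, PSMB9 and PSMB10 replace the standard catalytic subunits, and PSME1 and PSME2 are induced beside them. The transcription factor NRF1, encoded by NFE2L1, raises most subunit genes together when proteasome activity is short, and NRF2 has been linked to the same genes.

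Between 13752 and 14325 genes reached 1 FPKM in a library, FPKM being fragments per kilobase of transcript, scaled for depth. The authors' deposited mean normalized counts sum to 8341083, the only depth the table gives. CEBPB itself was at 78.7 and 80.9 FPKM in the controls, at 12.9 under siRNA-1 and at 11 under siRNA-2, which checks the labels (log2 change -2.65 ± 0.17, limma adjusted p = 0.0167). The epithelial keratin KRT8 was at 1226 to 2517 FPKM, while PTPRC, CD3E, LYZ, COL1A2, VWF, CDH5 and HBB were listed at 0 in all 4 libraries. The other epithelial markers varied. KRT18 was at 1740 and 2502 FPKM under control siRNA, 568 under siRNA-1 and 1351 under siRNA-2. It was lower in the authors' deposited table (-1.21, adjusted p = 0.0317) but did not pass in limma (adjusted p = 0.339). KRT7 was at 671 and 777 against 1200 and 1162 FPKM. CDH1 was at 14.0 to 32.1 FPKM, and EPCAM and KRT19 were low, at 1.03 to 3.52 and 2.41 to 7.38. Of the other leukocyte and fibroblast markers looked up, CD14, CD68 and COL1A1 averaged at least 1 FPKM. The leukocyte markers summed to 10.1 and 13.2 FPKM under control siRNA, 17.6 under siRNA-1 and 6.70 under siRNA-2. CD68 carried most of this sum (7.09, 9.72, 16.8 and 4.69 FPKM), with a mean normalized count of only 0.754 in the authors' deposited table, while CD14 was at 3.03 and 3.53 against 0.862 and 2 FPKM. The fibroblast markers summed to 0.717 and 0.573 FPKM under control siRNA, 4.47 under siRNA-1 and 2.30 under siRNA-2. COL1A1 carried most of this sum, with 4.22 FPKM under siRNA-1 and 2.23 under siRNA-2. It was higher in the authors' deposited table (1.88, adjusted p = 0.00621) but did not pass in limma (1.32, adjusted p = 0.198). The part of these markers in the results below was not tested.

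The largest differences among the proteasome genes were those of the interferon-linked activator pair PSME1 and PSME2. In the authors' deposited table these 2 genes were higher after CEBPB knockdown and none was lower, out of 44 genes with an adjusted p (4.14% of all genes with an adjusted p passed there, 2.71% higher and 1.42% lower). In limma on log2(FPKM + 1), with Benjamini-Hochberg adjustment over the 14068 genes whose mean reached 1 FPKM, 0 of the 44 proteasome genes passed an adjusted p of 0.05 (0.235% of all genes passed, 0.064% higher and 0.171% lower). At an unadjusted p below 0.05 limma gave 2 higher, PSME1 and PSME2, and 2 lower, PSMA6 and PSMB6, where 12.2% of all genes stood at that level, 7.07% higher and 5.13% lower. PSMA8 and PSMB11, subunits of the testis and the thymus, were listed at 0 in every library. The second locus called PSMA1 was also listed at 0 throughout, and the second PSMA2 locus reached 0.208 FPKM in control 1 and 0 elsewhere.

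The classes leaned to different sides, which is given here as a description with no test. Of all 44 genes 12 had a log2 change above 0 and 32 below (50.1% and 49.9% of all genes tested). Without the activators and the inhibitor, 39 genes were tested. Of these, 16 had both siRNA libraries below both controls (21.0% of all genes did) and 1, PSMD2, had both above (23.5% of all genes did). The median log2 change was -0.14 for 15 core genes, -0.12 for 17 cap genes and -0.26 for 7 assembly chaperone genes, against 0.00 over all genes tested. Among the 5 activator and inhibitor genes the median was 0.19, and 4 had both siRNA libraries above both controls. Under 3 other ways of scaling the libraries the core median lay between -0.14 and -0.11, the cap median between -0.13 and -0.10, the chaperone median between -0.26 and -0.24 and the activator median between 0.18 and 0.22.

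**Figure D1:**
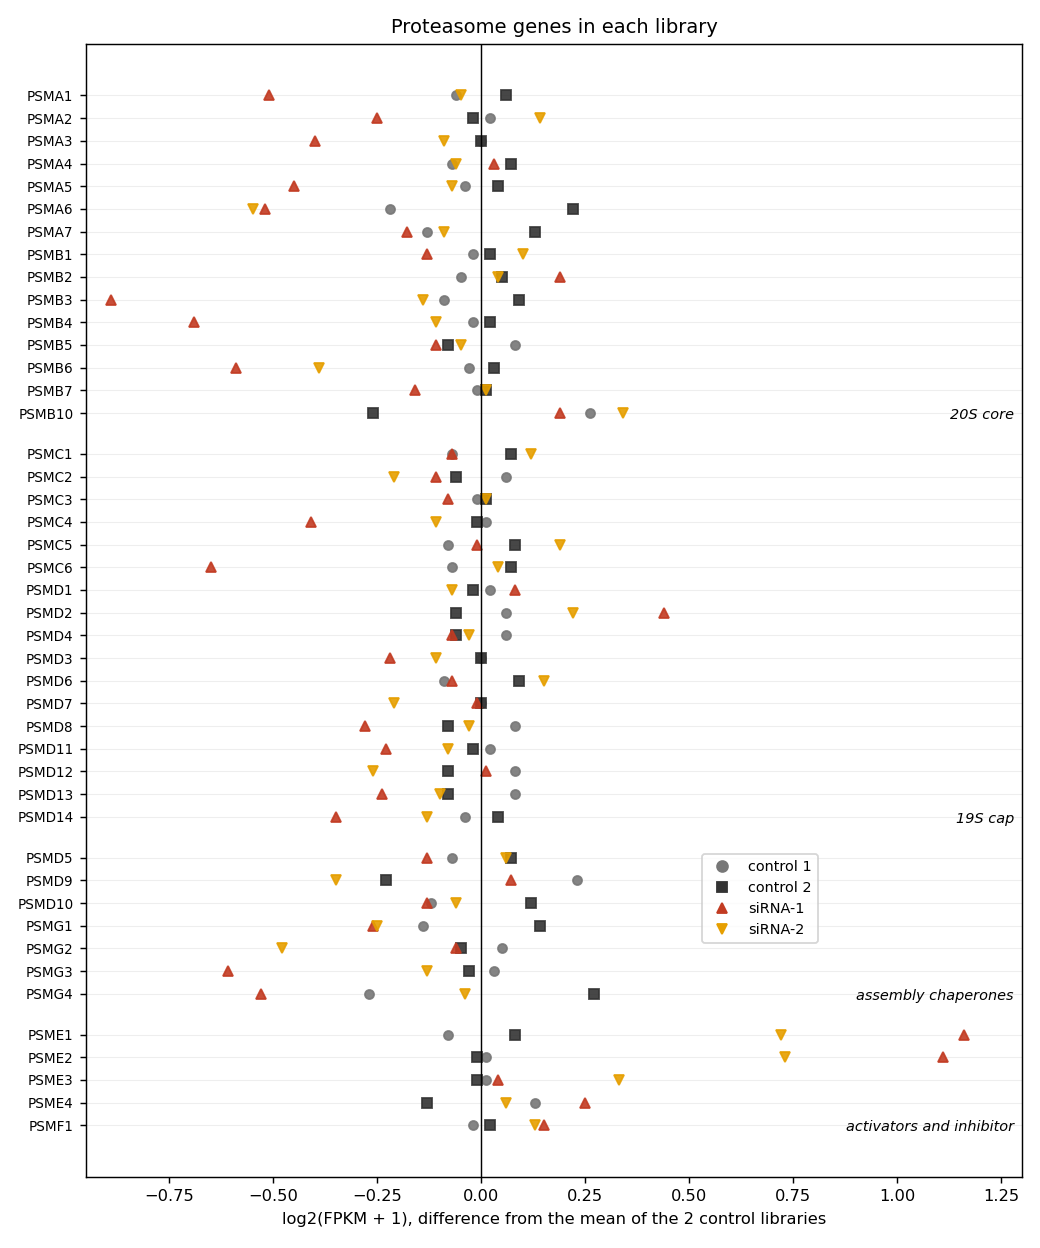
Each row is 1 proteasome gene and each symbol 1 library; the x axis is the difference in log2(FPKM + 1) from the mean of the 2 controls. PSME1 and PSME2 stand to the right with both siRNAs (0.72 to 1.16), while PSMB3, PSMB4, PSMC6 and PSMG3 stand furthest to the left with siRNA-1 (-0.89 to -0.61).

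The alpha subunits form the outer rings of the core and gate the entry to the chamber. Of their 7 tested genes, none passed in either table, and 3 had both siRNA libraries below both controls, as 21.0% of all genes did. PSMA6 was at 121 and 165 FPKM under control siRNA, 98.0 under siRNA-1 and 95.9 under siRNA-2. The groups did not overlap, but the controls stood further apart than the siRNA libraries did. The fitted difference on the log2 scale was -0.54 ± 0.20 (SE, n = 2 in each group), with a limma adjusted p of 0.361. PSMA3 was at 108 FPKM in both controls, 81.9 under siRNA-1 and 101 under siRNA-2, and PSMA5 at 25.8 and 27.2 in the controls, 19.1 and 25.3. In both of these the siRNA-1 library was the low one and siRNA-2 lay just under the controls. PSMA4, the most abundant alpha transcript, was at 229 and 251 FPKM under control siRNA, against 245 and 231 under the CEBPB siRNAs, which lay between the controls. PSMA1, PSMA2 and PSMA7 overlapped between the groups, with siRNA-1 at 70.0%, 83.7% and 87.9% of the control mean and siRNA-2 at 96.4%, 110.4% and 93.3%. PSMA2 thus lay above both controls with siRNA-2.

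The beta rings carry the active sites on 3 of their subunits. PSMB6, the caspase-like subunit, was at 132 and 138 FPKM under control siRNA, 89.6 under siRNA-1 and 103 under siRNA-2. Both siRNA libraries lay below both controls, a log2 change of -0.49 ± 0.16 that did not pass (limma adjusted p = 0.311; in the authors' deposited table, -0.50 with an adjusted p of 0.331). The other catalytic subunits stayed closer to the controls. PSMB5, the chymotrypsin-like subunit and the main target of proteasome inhibitor drugs, was at 131 and 118 FPKM against 115 and 120.1, and PSMB7, the trypsin-like subunit, at 106 and 107 against 95.4 and 108. Their log2 changes were -0.08 ± 0.15 and -0.07 ± 0.15.

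PSMB3 and PSMB4 are structural beta subunits without an active site. PSMB3 was at 109 and 125 FPKM under control siRNA, 62.5 under siRNA-1 and 106 under siRNA-2. PSMB4 was at 147 and 150.4 FPKM under control siRNA, 91.7 under siRNA-1 and 138 under siRNA-2. In both the siRNA-1 library was far below the other 3 and siRNA-2 just below the controls. The log2 changes, -0.52 ± 0.27 and -0.40 ± 0.23, did not pass (limma adjusted p = 0.531 and 0.551). Without siRNA-2, they were -0.89 and -0.69 and passed, as did PSMB6 at -0.59 (limma adjusted p = 0.025, 0.0313 and 0.0459), in a fit that called 894 genes lower, 6.35% of all genes tested. Without siRNA-1 they were -0.14 and -0.11, and PSMB6 -0.39 (limma adjusted p = 0.711, 0.738 and 0.261). PSMB2 (0.12 ± 0.16) and PSMB1 (-0.01 ± 0.16) differed from the controls by less than their errors. The FPKM of all core genes summed to 1517 and 1632 in the controls, then 1271 under siRNA-1 and 1454 under siRNA-2, or 80.7% and 92.3% of the control mean.

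PSMB10 is the interferon-inducible partner of PSMB7 and the only inducible catalytic subunit among these genes. It was at 13.4 and 9.09 FPKM under control siRNA, 12.7 under siRNA-1 and 14.3 under siRNA-2. The groups overlapped and the change of 0.27 ± 0.23 did not pass (limma adjusted p = 0.701). The ratio of PSMB10 to PSMB7 was 0.126 and 0.0847 in the controls and 0.133 in both siRNA libraries. The 2 inducible subunits outside the rule had non-overlapping groups. PSMB8 had 7.18 and 7.22 FPKM in the controls against 23.4 and 17.4 under the siRNAs, and PSMB9 had 9.97 and 8.05 against 29.3 and 21.6. Both passed in the authors' deposited table (log2 changes of 1.57 and 1.53, adjusted p = 0.00135 and 0.00356) and neither in limma (adjusted p = 0.103 and 0.11). The ratio of PSMB8 to its standard counterpart PSMB5 was 0.0548 and 0.0614 in the controls, then 0.204 under siRNA-1 and 0.145 under siRNA-2. For PSMB9 over PSMB6 it was 0.0754 and 0.0582, then 0.327 and 0.209. The standard form thus remained the more abundant transcript of each pair in every library.

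**Figure D2:**
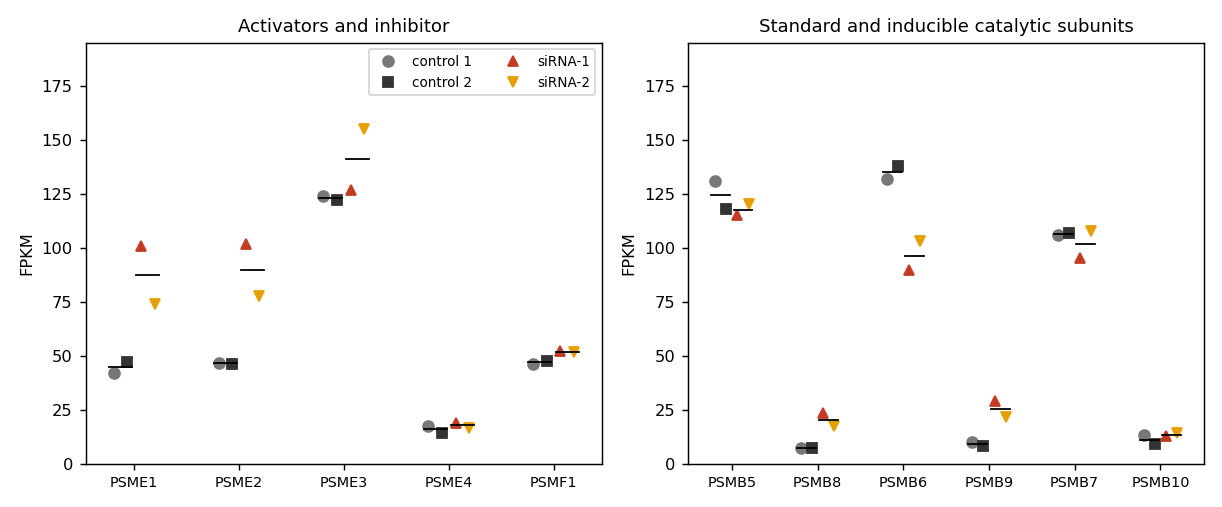
FPKM (y axis) of the activators and inhibitor (left) and of each standard catalytic subunit beside its inducible counterpart (right), with 1 symbol per library and a black bar at each group mean. PSME1, PSME2, PSMB8 and PSMB9 have both siRNA libraries above both controls, while PSMB10 overlaps.

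In the cap, the PSMC genes encode the ATPase ring that unfolds substrates. All 6 were tested, none passed, and 2, PSMC2 and PSMC4, had both siRNA libraries below both controls (21.0% of all genes did). PSMC4 was at 147 and 144 FPKM under control siRNA, 109 under siRNA-1 and 134 under siRNA-2 (log2 change -0.26 ± 0.17, limma adjusted p = 0.597). PSMC6 was at 45.7 and 50.7 FPKM under control siRNA, 30.4 under siRNA-1 and 49.7 under siRNA-2. Here siRNA-2 lay between the controls, so the fitted change of -0.30 ± 0.26 rests on the siRNA-1 library, and without that library it was 0.04. PSMC5 and PSMC1 were the ATPases with the highest changes, 0.09 ± 0.16 and 0.03 ± 0.16, both within their errors.

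The rest of the cap comprises the large scaffolds PSMD1 and PSMD2, the ubiquitin receptor PSMD4 and the lid. PSMD2 was at 82.1 and 75.9 FPKM under control siRNA, 108 under siRNA-1 and 92.3 under siRNA-2. It was the only core or cap gene with both siRNA libraries above both controls, with a change of 0.33 ± 0.16 that did not pass (limma adjusted p = 0.499; in the authors' deposited table, 0.29 with an adjusted p of 0.825). PSMD1, which serves beside it, was at 60.0 and 58.5 against 62.7 and 56.3 FPKM. PSMD4 was at 109 and 101 FPKM under control siRNA, against 100.1 and 103 under the CEBPB siRNAs (-0.05 ± 0.15).

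The lid holds the deubiquitinase PSMD14, which cuts ubiquitin chains off the substrate. PSMD14 was at 41.3 and 43.8 FPKM under control siRNA, 33.1 under siRNA-1 and 38.7 under siRNA-2, a change of -0.24 ± 0.17 (limma adjusted p = 0.618). It is 1 of 5 lid genes, of 8, with both siRNA libraries below both controls (21.0% of all genes), the others being PSMD3, PSMD7, PSMD11 and PSMD13. PSMD13 had a log2 change of -0.17 ± 0.16 and PSMD6, the highest lid gene in this respect, 0.04 ± 0.17. The log2 changes of the lid genes ran from -0.24 to 0.04. The FPKM of the whole cap summed to 1487 and 1457 in the controls, then 1341 under siRNA-1 and 1444 under siRNA-2, or 91.1% and 98.1% of the control mean. The cap sum was 0.98 and 0.893 of the core sum in the controls and 1.05 and 0.994 of it in the siRNA libraries.

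Of the 7 chaperones that build the particle, none passed in either table. Their median of -0.26 was -0.12 without control 2 and -0.13 without either siRNA library. PSMG1 and PSMG2 pair to help the alpha ring form, and PSMG3 and PSMG4 act as a further pair. PSMG1 was at 30.8 and 37.4 FPKM under control siRNA, against 28.2 and 28.3 under the CEBPB siRNAs, PSMG2 at 17.6 and 16.4 against 16.2 and 11.9. PSMG3 was at 25.9 and 24.9 FPKM under control siRNA, 16.2 under siRNA-1 and 23.1 under siRNA-2. In these 3 genes both siRNA libraries lay below both controls (21.0% of all genes), though the lower one was siRNA-2 for PSMG2 and siRNA-1 for PSMG3. PSMG4, the least abundant tested gene of all, was at 7.80 and 11.9 against 6.38 and 9.37 and overlapped. The log2 changes of the 4 genes lay between -0.37 and -0.26, with standard errors of 0.17 to 0.28 and limma adjusted p-values of 0.556 to 0.743. The chaperones of the cap's base, PSMD5, PSMD9 and PSMD10, overlapped between the groups and had log2 changes of -0.03 ± 0.18, -0.14 ± 0.24 and -0.10 ± 0.17.

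The activator class held the largest changes of all the proteasome genes. PSME1, the alpha subunit of PA28, was at 42.1 and 47.2 FPKM under control siRNA, 101 under siRNA-1 and 74.1 under siRNA-2. PSME2, the beta subunit, was at 46.9 and 46.3 FPKM under control siRNA, 102 under siRNA-1 and 77.8 under siRNA-2. Both genes were higher with each siRNA than in either control, and the siRNA-1 library was the highest. The log2 changes were 0.94 ± 0.20 and 0.92 ± 0.19 (SE, n = 2 in each group; limma adjusted p = 0.176 and 0.16). The authors' deposited table gives 0.91 and 0.79 (adjusted p = 0.03 and 0.039), so the genes rose there and did not pass here. Over the other settings the changes stayed between 0.72 and 1.16 for PSME1 and between 0.73 and 1.11 for PSME2. Limma's adjusted p was lowest, at 0.00164 and 0.00232, with no filter on low values, where limma reported its shared prior as unreliable. With a filter, 2 groups and all 4 libraries it ran from 0.149 to 0.22 for PSME1 and from 0.137 to 0.206 for PSME2. They passed without siRNA-2 (limma adjusted p = 0.0149 and 0.0133), where 870 genes, 6.18% of all tested, were called higher. Without siRNA-1 they did not pass (limma adjusted p = 0.115 and 0.0941). Without control 1 or control 2 the adjusted p was 0.893 to 0.964, and limma called 0 genes of the whole table.

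The subunits of PA28 assemble into 1 ring, and their transcripts kept a ratio near 1. PSME1 over PSME2 was 0.898 and 1.02 in the controls and 0.989 and 0.953 in the siRNA libraries. Their sum was 0.0587 and 0.0573 of the core sum in the controls, then 0.159 under siRNA-1 and 0.104 under siRNA-2. PSME3, the nuclear PA28 form, was at 124 and 122 FPKM under control siRNA, 127 under siRNA-1 and 155 under siRNA-2, and PSME4 at 17.4 and 14.4 against 19.1 and 16.6. Both changes, 0.19 ± 0.17 and 0.16 ± 0.19, were near their errors (limma adjusted p = 0.707 and 0.793). PSMF1, which encodes the inhibitor PI31, was at 46.4 and 47.5 FPKM under control siRNA, against 52.3 and 51.7 under the CEBPB siRNAs (0.14 ± 0.15, limma adjusted p = 0.756). The authors' deposited table gives -0.04 for PSMF1, so its direction differs between the tables.

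PSME1 and PSME2 lie close together on chromosome 14, with 1 coding gene between them in GENCODE 29. EMC9, that gene, was at 23 and 22.5 FPKM under control siRNA, against 21.2 and 22.8 under the CEBPB siRNAs. On the PSME1 side DCAF11 was at 13.1 and 14.9 against 12.6 and 15.4 FPKM. Neither followed the PSME genes. On the PSME2 side both siRNA libraries lay above both controls for RNF31, IRF9 and REC8, as they did for 23.5% of all genes. RNF31 was at 13.6 and 11, then 21.3 and 23.4 FPKM. IRF9 was at 5.34 and 5.80, then 12.9 and 7.74 FPKM, and REC8 at 1.12 and 1.11, then 1.81 and 2.1. Another locus on that side overlapped (4.13 and 3.77, then 4.95 and 3.68 FPKM). Also on the PSME1 side, PCK2 overlapped and DHRS4L2 had both siRNA libraries below both controls (21.0% of all genes did). The log2 changes of RNF31 and IRF9 were 0.82 ± 0.19 and 0.75 ± 0.27 in limma (adjusted p = 0.187 and 0.359) but 0.01 and 0.11 in the authors' deposited table. That of REC8 was 0.48 in both and passed in neither (adjusted p = 0.49 in limma and 0.981 in the authors' deposited table). These neighbours were chosen after the values of PSME1 and PSME2 were seen. Exons of RNF31 overlap PSME2, and exons of EMC9 overlap PSME1, on the opposite strand.

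The promoters of the PSME pair are shown because these are the genes that rose in the authors' deposited table. The sequences are RefSeq's, in GRCh38.p14, and run 5′ to 3′ on the gene's strand over the 250 bases before the annotated start. Capitals mark TGACNNNGC, the core of the antioxidant response element bound by NRF factors, and a form of the interferon-stimulated response element, GAAA repeated after any 2 bases, on either strand.
PSME1, chr14:24135944-24136193, plus strand: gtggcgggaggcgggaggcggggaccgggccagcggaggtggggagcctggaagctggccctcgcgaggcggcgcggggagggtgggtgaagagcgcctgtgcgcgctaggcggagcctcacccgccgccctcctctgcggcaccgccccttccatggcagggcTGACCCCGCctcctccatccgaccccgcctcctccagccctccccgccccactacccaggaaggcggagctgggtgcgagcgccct
PSME2, chr14:24146611-24146860, minus strand: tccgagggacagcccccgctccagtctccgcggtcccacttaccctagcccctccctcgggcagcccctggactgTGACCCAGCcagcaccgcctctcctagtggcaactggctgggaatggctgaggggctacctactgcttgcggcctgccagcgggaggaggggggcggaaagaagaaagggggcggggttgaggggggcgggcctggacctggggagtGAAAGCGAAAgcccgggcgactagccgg

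The GAAA repeat was searched after the values were seen. It stood in 6 of 48 promoter entries of the proteasome genes (12.5%), beside 3.57% of all 35116 entries, each 300 bases long from 250 before to 50 after a start. The 6 genes were PSMA4, PSMB4, PSMB10, PSMG4, PSME1 and PSME2. It is shown for PSMB10 and the PSME pair, the interferon-inducible genes among them, in windows of 30 bases with the motif in capitals (in PSME1 it reads on the other strand).
PSME1, chr14:24136189-24136218, plus strand: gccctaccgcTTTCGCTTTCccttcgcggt
PSME2, chr14:24146619-24146648, minus strand: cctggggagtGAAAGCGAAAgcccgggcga
PSMB10, chr16:67936852-67936881, minus strand: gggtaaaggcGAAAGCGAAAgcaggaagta
With the start counted as position 1 and no position 0, the motif begins at 6 in PSME1, at -28 in PSME2 and at -21 in PSMB10. In PSMG4 it begins at -33 with the same letters as in PSME2, in PSMB4 at -68 and in PSMA4 at -240. The log2 changes of its carriers differed: PSME1 and PSME2 had 0.94 and 0.92, PSMB10 0.27, PSMA4 -0.01, PSMG4 -0.28 and PSMB4 -0.40.

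Promoter entries were found for 40 of the 46 symbols and not for PSMA7, PSMB1, PSMB6, PSMB7, PSMD4 and PSMG3. TGACNNNGC was present in 14 of the 48 entries (29.2%), beside 13.3% of all entries. It is shown here for 4 subunits of the core and cap, chosen after the matches were seen, in windows of 30 bases with the motif in capitals.
PSMA4, chr15:78540650-78540679, plus strand: gtgggcacgaTGACTCTGCaccgcctcctc
PSMB3, chr17:38752627-38752656, plus strand: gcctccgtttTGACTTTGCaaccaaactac
PSMD3, chr17:39980760-39980789, plus strand: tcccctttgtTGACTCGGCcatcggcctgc
PSMD12, chr17:67366723-67366752, minus strand: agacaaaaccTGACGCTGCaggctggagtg
These 4 genes had log2 changes from -0.52 (PSMB3) to -0.01 (PSMA4). The other carriers were PSMC4, PSMC5, PSMD1, PSMD5, PSMD9, PSMG1, PSMG2, PSME1, PSME2 and PSME4, and over all 14 genes the changes ran from -0.52 to 0.94. The C/EBP motif TTGCNNAA stood in 3 entries (6.25%, beside 10.5% of all), those of PSMB4, PSMB5 and PSMD5. CCAAT, the box bound by NF-Y, stood in 19 (39.6%, beside 34.6%). All motifs were read on both strands and no matches of different motifs overlapped. A match is a match of letters, not a measured binding site.

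Transcript levels were unequal, also among subunits that the particle holds in fixed numbers. In the controls the tested core genes ran from a mean of 11.2 FPKM (PSMB10) to 240.3 (PSMA4), with a median of 108. PSMB10 is an inducible replacement and not held in a fixed number. The lowest of the other tested core genes was PSMA5, at 26.5. Among the cap genes the range was from 27.2 (PSMD12) to 237 (PSMD8), with a median of 79.0. PSMD12 and PSMD8 had log2 changes of -0.12 ± 0.18 and -0.15 ± 0.17. The chaperones were lower, from 9.83 (PSMG4) to 34.1 (PSMG1), and the activators ran from 15.9 (PSME4) to 123 (PSME3). Many neighbours in these orders differed by less than the spread between the controls: PSMB5, for instance, was at 131 and 118 FPKM and PSMB6 at 132 and 138. All proteasome genes together made up 0.671% and 0.669% of the FPKM in the controls, 0.638% under siRNA-1 and 0.680% under siRNA-2.

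**Figure D3:**
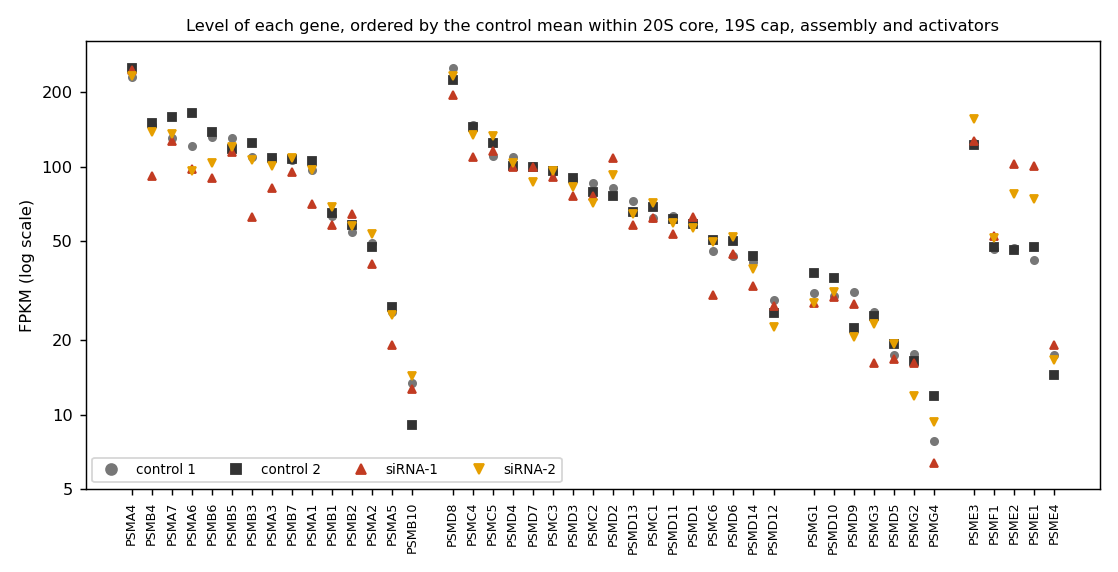
FPKM (log y axis) of each tested gene in the 4 libraries, ordered by the control mean within the core, the cap, the assembly chaperones and the activators. PSMA4 and PSMD8 are the highest and PSMG4 the lowest, and PSME1 and PSME2 are the genes whose siRNA points stand furthest above their controls.

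The siRNAs were compared directly in a fit with 3 groups, in which each siRNA library is assumed to vary as the controls do. None of the 44 genes passed an adjusted p of 0.05 for siRNA-1 minus siRNA-2 (0.441% of all genes did), and 8 had an unadjusted p below 0.05 (22.4% of all genes did), 6 of them lower with siRNA-1 (13.4% of all genes were). By sign alone 30 of the 44 were lower with siRNA-1 than with siRNA-2, as were 56.2% of all genes. The 3 with the smallest p were PSMB3, PSMC6 and PSMB4, all lower with siRNA-1, by log2 differences of -0.75 ± 0.16, -0.69 ± 0.16 and -0.58 ± 0.14 (limma adjusted p = 0.0966, 0.107 and 0.112). PSME1 and PSME2 were higher with siRNA-1, by 0.44 ± 0.16 and 0.38 ± 0.14 (limma adjusted p = 0.209 and 0.213). Both siRNAs share the controls, so their values are set side by side. The core median was -0.25 under siRNA-1 and -0.06 under siRNA-2, and the cap median -0.08 and -0.07. Of the 39 genes outside the activator class, 29 lay below both controls with siRNA-1 (44.1% of all genes did) and 19 with siRNA-2 (32.1% of all genes did). Above both controls were 3 under siRNA-1 and 8 under siRNA-2, beside 38.0% and 42.6% of all genes.

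The authors' deposited table rests on read counts, and for most members its log2 changes were close to those from FPKM. For 40 of the 44 genes the estimates lay within 0.15 of each other, and for 40 they had the same sign. The largest gap, 0.47, was that of PSMB10, with 0.27 here and 0.73 in the authors' table. PSMB10 had a mean normalized count of 27.9 there, while its mean FPKM was 12.4. In 5 genes the mean normalized count per FPKM was under 5: PSMA6 (0.988), PSMA2 (1.02), PSMA1 (1.22), PSMB10 (2.25) and PSMD9 (4.37). In the other 39 it lay between 6.81 and 65.1, with a median of 13. Because FPKM is per kilobase of transcript, this ratio also grows with transcript length and is not a plain measure of read support.

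These 5 genes share a feature of annotation. In GENCODE 29 each has exons that overlap those of another protein-coding gene on the same strand. For PSMA1 and PSMA2 these are the second loci of the same name. Of the other members, PSME2 overlaps a microRNA gene and PSMF1 a non-coding transcript on the same strand. Reads in a shared exon can be assigned to either gene or dropped. The levels of the 5 genes, and the change of PSMA6 among them, are taken as uncertain. Whether the overlaps bear on their counts was not tested. Exons of 17 symbols, PSME1 and PSME2 included, overlap a gene on the opposite strand. The libraries were strand-specific, but whether the counting used strand is not given in the sources used here. Outside the 5 genes, mean normalized counts ran from 115 to 2887.

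**Figure D4:**
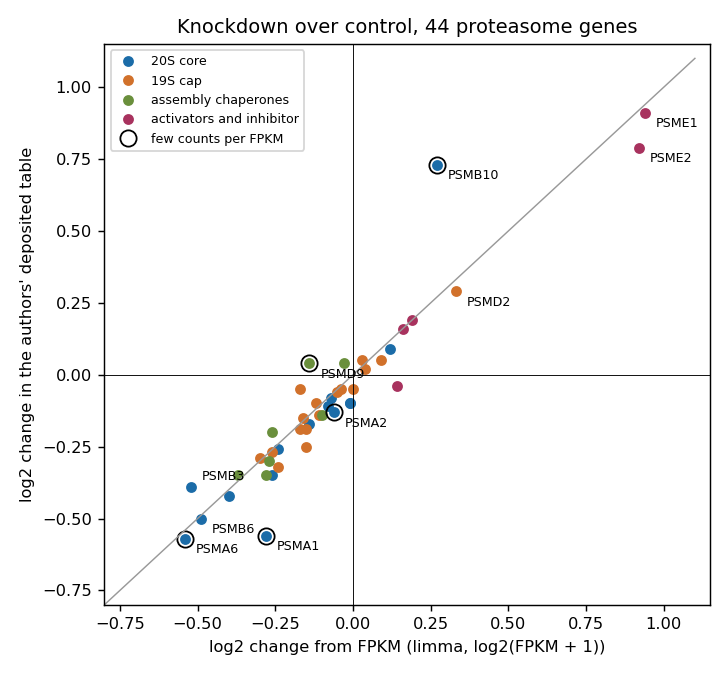
Log2 change of CEBPB knockdown over control for the 44 tested genes from FPKM (x axis) and in the authors' deposited table (y axis); the grey line marks equal values and rings mark the 5 genes with under 5 counts per FPKM. PSME1 and PSME2 are at the upper right in both, and PSMB10 lies furthest from the line.

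**Figure D5:**
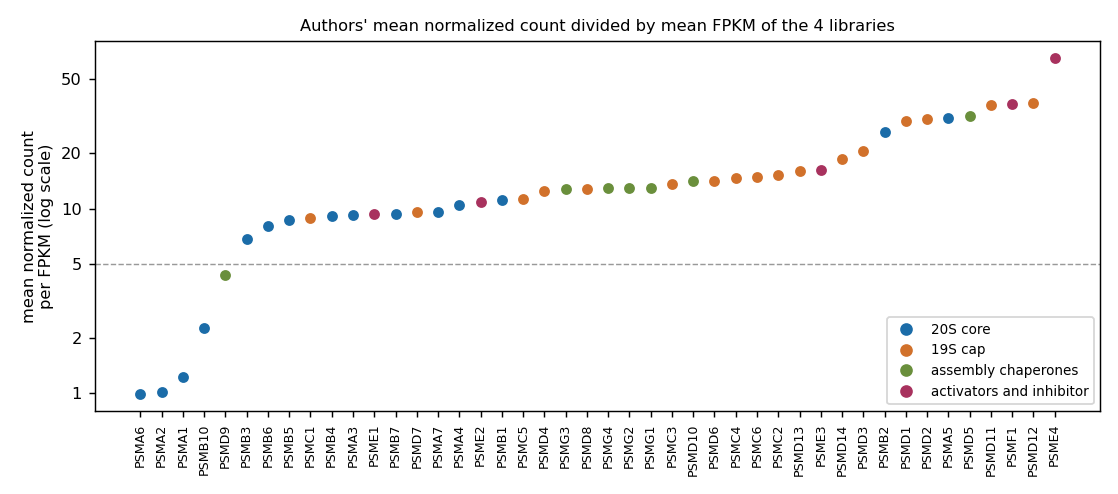
Authors' mean normalized count divided by the mean FPKM of the 4 libraries (log y axis) for each tested gene, in rising order, coloured by class; the dashed line is at 5. PSMA6, PSMA2, PSMA1, PSMB10 and PSMD9 lie below it.

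The partners listed here are proteins that bind, build or regulate the proteasome. Of 10 tested partners, 0 passed in limma or in the authors' deposited table, where 0.235% and 4.14% of all genes did, so that about 0 calls is the background level for so short a list. Both siRNA libraries lay below both controls for 7 and above for 1 (21.0% and 23.5% of all genes), and the median was -0.23. USP14, a deubiquitinase that docks on the cap, was at 38.8 and 47.4 FPKM under control siRNA, 28.2 under siRNA-1 and 26.5 under siRNA-2, a change of -0.63 ± 0.18 with the smallest limma p of this list (adjusted p = 0.259). The authors' deposited table gives -0.20 for it (adjusted p = 0.971). ZFAND5 had the largest change of the list in both tables and passed in neither. It was at 87.4 and 91.4 FPKM under control siRNA, 42.5 under siRNA-1 and 65.8 under siRNA-2. Its log2 change was -0.75 ± 0.24 in limma (adjusted p = 0.302) and -0.80 in the authors' deposited table (adjusted p = 0.0812). POMP, which matures the core, was at 31.9 and 32.5 against 28.2 and 27.9. Of 10 ubiquitin shuttle and unfoldase genes 0 passed (median -0.15); RAD23B, a shuttle factor, had the smallest p, with a change of 0.30 ± 0.15. Of 6 ubiquitin and E1 genes 0 passed (median -0.07).

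Among 8 genes of the NRF1 and NRF2 system that acts on subunit promoters, 0 passed in limma (0.235% of all genes did). NFE2L3, 1 of the 8, was higher in the authors' deposited table (1.13, adjusted p = 0.0032). There 2.71% of all genes with an adjusted p passed as higher. The list had a median log2 change of -0.35. In 5 of its genes, NFE2L2, KEAP1, NGLY1, MAFG and MAFK, both siRNA libraries lay below both controls (21.0% of all genes did). Only NFE2L3 had both above (23.5% of all genes did). NFE2L3, which encodes the related factor NRF3, was at 7.04 and 5.64 FPKM under control siRNA, against 14.0 and 13.7 under the CEBPB siRNAs. NFE2L1 was at 82.9 and 76.3 against 81.4 and 71.6, so its groups overlapped. NGLY1, the glycanase that NRF1 needs for its activation, was at 13.1 and 13 FPKM under control siRNA, against 8.3 and 9.6 under the CEBPB siRNAs (-0.50 ± 0.18, limma adjusted p = 0.358). Transcripts of the NRF2 gene, NFE2L2, stood at 28.2 FPKM under siRNA-1 and 26.6 under siRNA-2, below control values of 37.9 and 35.6. This log2 change of -0.41 ± 0.16 did not pass (limma adjusted p = 0.384). The authors' deposited table gives -0.44 for it (adjusted p = 0.504). Whether these changes bear on the subunit genes was not tested.

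Other large complexes set beside the core and cap had like medians. The 9 genes of the COP9 signalosome, a relative of the lid, had a median log2 change of -0.11. The 8 of the chaperonin CCT had -0.13. There were 0 calls in limma or in the authors' deposited table, where 0.235% and 4.14% of all genes passed. With siRNA-1 and siRNA-2 the CCT medians were -0.21 and -0.06, and those of the core -0.25 and -0.06. The smallest p in these lists were those of COPS2 (-0.35 ± 0.21) and CCT8 (-0.32 ± 0.16), for which the authors' deposited table gives -0.03 and -0.22. No comparison of these lists with the proteasome was tested.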

How the data were processed

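Strand-specific libraries of 76-base single reads were measured in 2 control and 2 CEBPB siRNA samples. Per the submitters' processing notes, the tools were STAR 2.7.0d, StringTie 2.1.4, HTSeq 0.13.5 and DESeq2 1.26.0 with build hg19, roles not given. The per-library values were taken as FPKM made by the authors: the header names no unit, and the deposited decimals sum to 494066 to 528606 per library. The other columns are, per the file headers, the authors' DESeq2 results: a mean normalized count (a signal), log2 changes with errors, a Wald score, and p-values. Their Wald score was not used, and padj missing there stays missing.

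The design named limma for FPKM: limma 3.58.1 (R 4.3.3, intensity trend, 2 residual degrees of freedom, 3.611 from the prior) on log2(FPKM + 1), which understates changes of low genes, for genes whose mean reached 1 FPKM, at a threshold of 0.05. An exact permutation test of 2 against 2 cannot go below p = 0.333. The fit was tested on simulated data. Gene IDs were matched to GENCODE 29 without version (45 of 46 symbols).

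Members and lists were chosen with earlier results of these data known. PSMD5, PSMD9 and PSMD10 were counted as chaperones, not cap. Genes named were the catalytic subunits, all PSME, PSMF and PSMG genes, PSMD4, PSMD14, the chaperones, genes past a threshold, the 4 largest and 4 smallest changes in core and cap, the extremes of level, and in other lists genes past a threshold or with the smallest p. Others were named after their values were seen. A gene that the rule names in the ubiquitin list is not reported here.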

Additional observations from a re-analysis of the deposited data

How the results depend on the processing

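With 2 libraries a group, 1 library decides most calls. Leaving out 1 library at a time gave 0 to 870 genes higher and 0 to 894 lower over the whole table (9 and 24 with all libraries). It gave 0 to 2 proteasome genes higher and 0 to 3 lower. In these fits the lone library is assumed to vary like the other group. All of those calls came without siRNA-2, where the higher were PSME1 and PSME2 and the lower PSMB3, PSMB4 and PSMB6. The medians then ran from -0.25 to -0.06 for the core, -0.16 to -0.07 for the cap, -0.22 to -0.12 for the chaperones and 0.18 to 0.33 for the activators. The 3-group fit gave 538 higher and 433 lower genes, 3.82% and 3.08% of all genes tested. It gave 2 higher proteasome genes, PSME1 and PSME2. With no filter, limma reported its shared prior as unreliable because many of the spreads were exactly 0. That fit called 1263 genes higher and 921 lower, 2.18% and 1.59% of all 57820 rows. Of the proteasome genes, 2 were higher in it and 3 differed between the siRNAs. A minimum mean of 5 FPKM also gave 3 (PSMB3, PSMB4 and PSMC6 in both). The shares of all genes that passed there were 9.61% and 13.6%, from 1 library per siRNA and a spread that only the controls give, so these 3 are not read as a difference between the siRNAs. The cap median was -0.10 when scaled to the FPKM outside the mitochondrial genome and -0.11 with upper-quartile scaling. The causes of these differences were not tested.

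The labels give both groups the numbers 1 and 2 without saying that they mark a shared culture or day. Same-numbered libraries deviated together with a correlation of 0.0754 across genes. In the knockdown group the numbers also mark the siRNAs, so this value cannot show whether a culture or day was shared. With the replicate block 14 genes were lower over the whole table and no proteasome gene passed.

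Single changes were not followed over the settings for PSMA1, PSMA2, PSMA3, PSMA7, PSMC2, PSMC3, PSMD1, PSMD3, PSMD7 and PSMD11. Among these, siRNA-2 alone stood at 0.14 for PSMA2, 0.01 for PSMC3 and -0.07 for PSMD1 against the control mean. Their fitted changes were -0.06, -0.04 and 0.00. Among the genes followed, the sign of 12 changes turned, most of them near 0 but also that of PSMC6, the most negative of the cap at -0.30. Leaving out 1 library gave -0.08 to 0.05 for PSMA4, -0.13 to 0.10 for PSMB1, -0.16 to 0.01 for PSMB7, -0.07 to 0.12 for PSMC1, -0.01 to 0.19 for PSMC5 and -0.65 to 0.04 for PSMC6. It gave -0.11 to 0.00 for PSMD4, -0.13 to 0.06 for PSMD5, -0.07 to 0.15 for PSMD6, -0.38 to 0.09 for PSMD9, -0.22 to 0.02 for PSMD10 and -0.26 to 0.01 for PSMD12. PSMA4 and PSMB1 were at 0.01 when scaled to the FPKM outside the mitochondrial genome and at 0.00 with upper-quartile scaling. None of these 12 genes passed in limma under any setting run; the smallest adjusted p was 0.0503, for PSMC6 without siRNA-2.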
